A study of Mus musculus with 12 samples.

Results

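The genes described here were Il6, Ptgs2, Has1, Tnfaip6, Ugdh, Gfpt2, Lif, Errfi1, Adamts4 and Nfkbia, 10 of the 31053 genes listed in the count matrices. They were taken by name as genes of inflammatory stromal cells and were read in every cell class, with cells that carry the fibroblast receptor Pdgfra first, beside the dissociation-response genes Fos and Jun. All 10 were detected in the stroma-like cells of all 12 libraries and all 10 passed the filter on low counts there. The members were chosen by their levels and group differences in the stromal cells of these same libraries, as read in earlier results, so the group differences in stroma below are given as descriptions of the members and not as support for choosing them.

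The study asked how 3 days of rosiglitazone, a thiazolidinedione that activates the nuclear receptor PPARγ, changed the stromal vascular fraction of adipose tissue in obese mice, with lean mice as the baseline. All mice were 12-week-old males, either C57BL/6J wild type given vehicle (WT-Veh) or Lepob/Lepob mice, which make no functional leptin, given vehicle (ob/ob-Veh) or rosiglitazone at 30 mg/kg by gavage (ob/ob-Rosi). No wild-type mice given rosiglitazone were analysed here. Epididymal (eWAT) and inguinal (iWAT) white fat was digested with collagenase at 37°C, floating adipocytes were removed, and the remaining cells were measured by droplet single-cell RNA sequencing, with 2 libraries for each depot and group.

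IL-6 and LIF are cytokines that signal through the shared receptor subunit gp130. PTGS2, also called COX-2, makes the prostaglandin precursor PGH2. HAS1 builds hyaluronan at the cell surface, UGDH makes one of its sugar precursors, UDP-glucuronate, GFPT2 controls entry of glucose carbons into the hexosamine pathway that makes the other, and TNFAIP6 (TSG-6) binds hyaluronan and alters its cross-linking. ADAMTS4 cleaves proteoglycans such as aggrecan and versican, ERRFI1 inhibits the EGF receptor, and NFKBIA (IκBα) holds NF-κB in the cytoplasm and is itself an NF-κB target. Many of these genes respond within an hour or so to cytokines, wounding and tissue digestion, and Fos and Jun, which encode the AP-1 factor, are standard markers of the response to digestion.

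By the GRCm38 annotation, Il6 lies at chr5:30013114-30019981 (plus strand), Lif at chr11:4257557-4272514 (plus), Ptgs2 at chr1:150100031-150108227 (plus), Has1 at chr17:17843323-17855205 (minus) and Tnfaip6 at chr2:52038009-52056686 (plus). Ugdh lies at chr5:65413221-65435949 (minus), Gfpt2 at chr11:49794178-49838613 (plus), Errfi1 at chr4:150853919-150868892 (plus), Adamts4 at chr1:171250421-171260637 (plus) and Nfkbia at chr12:55489410-55492647 (minus). Promoter windows are shown because Fos and Jun encode the factor that binds AP-1 motifs and Nfkbia is a feedback target of NF-κB, so the letters near the start sites show which members carry those motifs. RefSeq gave a promoter, from 250 bases before to 50 bases after the annotated start in GRCm38.p6, for 9 of the 10 genes, all but Adamts4. Each window below spans 60 bases, reads 5′ to 3′ on the gene's strand and has the matched motif in capitals.
Il6, κB motif, chr5:30013045-30013104, plus strand: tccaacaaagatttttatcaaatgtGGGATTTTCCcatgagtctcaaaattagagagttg
Il6, AP-1 motif, chr5:30012864-30012923, plus strand: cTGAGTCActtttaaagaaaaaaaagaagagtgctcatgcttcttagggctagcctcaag
Ptgs2, C/EBP motif, chr1:150099936-150099995, plus strand: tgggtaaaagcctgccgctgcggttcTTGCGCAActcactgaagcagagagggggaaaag
Has1, CRE motif, chr17:17855238-17855297, minus strand: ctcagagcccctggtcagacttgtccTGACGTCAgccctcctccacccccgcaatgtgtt
Tnfaip6, AP-1 motif, chr2:52037944-52038003, plus strand: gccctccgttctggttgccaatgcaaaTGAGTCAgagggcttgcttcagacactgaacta
Lif, AP-1 motif, chr11:4257318-4257377, plus strand: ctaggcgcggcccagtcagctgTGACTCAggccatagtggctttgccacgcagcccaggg
Nfkbia, κB motif, chr12:55492648-55492707, minus strand: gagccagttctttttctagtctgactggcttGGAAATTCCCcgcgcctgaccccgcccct

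The motifs were searched on both strands of 32851 promoters. The AP-1 motif TGANTCA occurred in the promoters of Il6, Tnfaip6, Gfpt2 and Lif, against 7.81% of all promoters. The κB motif occurred in Il6 and Nfkbia, against 4.51% of all promoters. The cyclic AMP response element TGACGTCA (CRE) occurred in Has1 and Errfi1, against 1.79% of all promoters, and the C/EBP motif TTGCNNAA in Il6, Ptgs2, Has1 and Gfpt2, against 10.8%. No 2 of these matches overlapped in a member that held more than 1. A match describes the letters of the window and does not show that a factor bound there.

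The libraries held 20132553 to 92475986 UMIs (unique molecular identifiers, each standing for 1 captured RNA molecule), and 126095 of 139755 barcodes passed the cell filters. Clusters named by markers gave 17202 stroma-like cells in eWAT and 19459 in iWAT, 377 to 6683 in a library. The fewest came from the iWAT library labelled WT-Veh 1, where 7846 of 17063 cells fell in 1 unnamed cluster and 2868 in another. All 8 stromal markers, among them Pdgfra and Dcn, were detected in the stroma-like cells of each library and together made 27796 to 47823 CPM (the UMIs of a gene divided by all UMIs of the class in that library, times 1e6). Median depth ran from 1313 to 6601 UMIs per stroma-like cell and was highest in the eWAT library labelled ob/ob-Veh 1. Different clusters held the stroma-like cells of the groups: 1646 and 1780 ob/ob-Veh cells of eWAT fell in a cluster with 15 and 22 WT-Veh cells, and 2787 and 2527 ob/ob-Veh cells of iWAT in one with 21 and 22. A difference between kinds of cell and a difference within cells therefore cannot be told apart in the stromal comparisons. In the stroma-like cells, the 11 macrophage markers summed to 1371–1907 CPM in WT-Veh eWAT, 267–492 in ob/ob-Veh and 1396–1586 in ob/ob-Rosi, so that they were lowest in the eWAT group where the members below were highest. Other lists were highest there, as the members were: the 8 mesothelial markers summed to 53.0–53.4 CPM in WT-Veh eWAT stroma, 178–183 in ob/ob-Veh and 36.7–57.3 in ob/ob-Rosi, the 5 adipocyte markers to 8.36–11.1, 18.3–26.1 and 1.78–2.83 CPM, and the 8 B-cell markers to 42.7–83.6, 89.6–122 and 6.31–32.2 CPM. In iWAT stroma the macrophage markers summed to 467–593 CPM in WT-Veh, 755–825 in ob/ob-Veh and 703–797 in ob/ob-Rosi. The endothelial markers summed to 55.6–85.5, 12.3–41.2 and 89.5–101 CPM, and the mesothelial and lymphoid markers too were lowest in ob/ob-Veh. The median mitochondrial share of kept iWAT cells was 5.89% and 3.32% in WT-Veh, 9.05% and 8.06% in ob/ob-Veh and 4.48% and 2.17% in ob/ob-Rosi. The part of such cells and of cell quality in the members' levels was not tested. As a check of the labels, Lep UMIs per 100 Adipoq UMIs over all barcodes were 28.0 and 42.5 in WT-Veh eWAT, 3.95 and 16.2 in ob/ob-Veh and 240.0 and 390.1 in ob/ob-Rosi, and in iWAT 20.1 and 31.6, 36.4 and 15.1, and 164 and 141. The ratio did not follow genotype. In eWAT ob/ob-Veh lay below WT-Veh and ob/ob-Rosi above it, and in iWAT ob/ob-Veh overlapped WT-Veh. The ob mutation leaves the Lep transcript in place, so these values check no deletion. Groups are named as labelled, and the values do not bear the labels out. Between 15 and 338 barcodes were shared by a pair of libraries (median 36.5 over 66 pairs), and 1216 stroma-like cells carried such a barcode.

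Il6, the cytokine of the group, stood at 43.6 and 14.0 CPM in the stroma-like cells of the 2 WT-Veh eWAT libraries, at 249 and 143 CPM in ob/ob-Veh and at 38.7 and 7.36 CPM in ob/ob-Rosi. In iWAT the same gene stood at 29.4 and 50.2 CPM, 148 and 143 CPM, and 32.1 and 9.75 CPM. In both depots the ob/ob-Veh libraries lay above all others, and the WT-Veh and ob/ob-Rosi libraries overlapped. The eWAT difference between ob/ob-Veh and WT-Veh was 2.71 on the log2 scale (SE 0.73) with an adjusted p of 0.0512 by edgeR's quasi-likelihood test with Benjamini-Hochberg adjustment, and the fall from ob/ob-Veh to ob/ob-Rosi was -3.11 (SE 0.74, adjusted p = 0.0286). With a term for the replicate number the eWAT difference between ob/ob-Veh and WT-Veh passed (2.90, adjusted p = 4.82e-05, edgeR). In iWAT these differences were 1.77 (SE 0.53, adjusted p = 0.179) and -2.74 (SE 0.55, adjusted p = 0.0647), and with that term the latter passed (-2.82, adjusted p = 0.0288, edgeR). The labels do not say that a replicate number marks a shared batch. Same-numbered libraries of ob/ob-Veh deviated together with correlations of 0.36 (WT-Veh) and 0.23 (ob/ob-Rosi) in eWAT, and -0.02 and 0.003 in iWAT. Passes with the term, here and below, are therefore alternatives that do not replace the fit without it.

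Lif, the other gp130 cytokine, was read from few molecules: 6 and 4 UMIs in WT-Veh eWAT, 420 and 213 in ob/ob-Veh, and 14 and 7 in ob/ob-Rosi. These made 1.00 and 0.488 CPM, 16.4 and 12.7 CPM, and 1.92 and 0.566 CPM, and in iWAT 3.61 and 3.19 CPM, 19.1 and 14.7 CPM, and 2.68 and 3.73 CPM. Each ob/ob-Veh library exceeded all libraries of the other groups in its depot. Lif was 4.29 higher on the log2 scale in ob/ob-Veh than in WT-Veh eWAT (SE 0.60, adjusted p = 0.00268, edgeR) and -3.63 in ob/ob-Rosi against ob/ob-Veh (SE 0.54, adjusted p = 0.00341). It passed the threshold (adjusted p at most 0.05 and at least 1.1-fold) in both eWAT contrasts whichever single library was left out. In iWAT it was 2.29 higher in ob/ob-Veh (SE 0.38, adjusted p = 0.0616) and -2.32 in ob/ob-Rosi against ob/ob-Veh (SE 0.34, adjusted p = 0.0379), and with the replicate term the first passed as well (2.27, adjusted p = 0.0312, edgeR).

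Ptgs2, the prostaglandin synthase, stood in eWAT at 35.4 and 14.6 CPM in WT-Veh, 590.1 and 322 CPM in ob/ob-Veh, and 44.7 and 3.80 CPM in ob/ob-Rosi. In iWAT it was 312 and 617 CPM in WT-Veh, 1353 and 1033 CPM in ob/ob-Veh, and 195 and 306 CPM in ob/ob-Rosi. The 2 ob/ob-Veh libraries were the highest in each depot, and every iWAT library labelled WT-Veh stood near or above the level of the lower ob/ob-Veh eWAT library. The eWAT differences were 4.14 for ob/ob-Veh against WT-Veh (SE 0.92, adjusted p = 0.0228, edgeR) and -4.26 for ob/ob-Rosi against ob/ob-Veh (SE 0.92, adjusted p = 0.0184). In iWAT they were 1.30 (SE 0.44, adjusted p = 0.211) and -2.19 (SE 0.45, adjusted p = 0.0649), of which the second passed with the replicate term (-2.27, adjusted p = 0.0291, edgeR).

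Has1, the hyaluronan synthase, was higher in ob/ob-Veh than in WT-Veh libraries of eWAT and lower in those of iWAT. Neither difference passed the test without a term for the replicate number. Its eWAT levels were 181 and 72.0 CPM in WT-Veh, 552 and 282 CPM in ob/ob-Veh, and 121 and 39.0 CPM in ob/ob-Rosi. Its iWAT levels were 630.5 and 608 CPM, 528 and 469 CPM, and 272 and 189.8 CPM. The ob/ob-Veh libraries lay above WT-Veh in eWAT and below WT-Veh in iWAT, and the ob/ob-Rosi libraries were the lowest in iWAT. The eWAT difference of 1.67 between ob/ob-Veh and WT-Veh did not pass the test (SE 0.60, adjusted p = 0.134, edgeR), the iWAT difference of -0.36 did not either (SE 0.29, adjusted p = 0.561), and ob/ob-Rosi was lower than ob/ob-Veh in eWAT at -2.39 (SE 0.62, adjusted p = 0.0396) and in iWAT, without passing, at -1.04 (SE 0.30, adjusted p = 0.117). With the replicate term the eWAT difference between ob/ob-Veh and WT-Veh was 1.73 and passed (adjusted p = 0.000611, edgeR).

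Ugdh, the enzyme upstream of hyaluronan, was 139.8 and 122 CPM in WT-Veh eWAT, 696 and 467 CPM in ob/ob-Veh, and 199.8 and 93.9 CPM in ob/ob-Rosi. Gfpt2, of the hexosamine branch, was 110.2 and 68.5 CPM, 477 and 256 CPM, and 161 and 69.0 CPM. Tnfaip6, the hyaluronan-binding protein, was 121 and 60.8 CPM, 709 and 349.6 CPM, and 148 and 51.6 CPM. For all 3 genes the ob/ob-Veh libraries stood apart from the other 4 and the WT-Veh and ob/ob-Rosi libraries overlapped. Between ob/ob-Veh and WT-Veh the differences were 2.11 for Ugdh (adjusted p = 0.0112), 2.00 for Gfpt2 (adjusted p = 0.0335) and 2.50 for Tnfaip6 (adjusted p = 0.0269), and between ob/ob-Rosi and ob/ob-Veh they were -1.97 (adjusted p = 0.0143), -1.67 (adjusted p = 0.0598) and -2.41 (adjusted p = 0.0277), all by edgeR. The value of Gfpt2 between ob/ob-Rosi and ob/ob-Veh passed with the replicate term (-1.68, adjusted p = 0.000597, edgeR).

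In iWAT the same 3 genes began from a higher lean level. Ugdh was 1093 and 972 CPM in WT-Veh, 1526 and 1281 CPM in ob/ob-Veh, and 701 and 882 CPM in ob/ob-Rosi. Gfpt2 was 574 and 512 CPM, 742 and 744 CPM, and 469.9 and 387 CPM, and Tnfaip6 was 351 and 272 CPM, 518 and 503 CPM, and 233 and 147 CPM. The order ob/ob-Veh, WT-Veh, ob/ob-Rosi held for each of them with no overlap between groups. None of their iWAT differences passed the test, except Tnfaip6 between ob/ob-Rosi and ob/ob-Veh with the replicate term (-1.38, adjusted p = 0.0337, edgeR).

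Errfi1, the EGF receptor inhibitor, was 369 and 261 CPM in WT-Veh eWAT, 913 and 440.2 CPM in ob/ob-Veh, and 457 and 285 CPM in ob/ob-Rosi. Nfkbia, the NF-κB inhibitor, was 186 and 191 CPM, 381 and 239.7 CPM, and 143 and 190.1 CPM. Adamts4, the proteoglycan-cleaving protease, was 85.8 and 48.3 CPM, 181 and 150.1 CPM, and 103 and 29.6 CPM. These 3 had the smallest eWAT differences of the 10, at 1.07, 0.69 and 1.24 for ob/ob-Veh against WT-Veh, and none passed the test in either contrast without a term for the replicate number. With that term Errfi1 (0.98, adjusted p = 0.0308, edgeR) and Adamts4 (1.33, adjusted p = 0.00923) passed between ob/ob-Veh and WT-Veh and Adamts4 (-1.52, adjusted p = 0.00372) between ob/ob-Rosi and ob/ob-Veh, while Nfkbia passed in neither (0.66 and -0.84).

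In iWAT, Errfi1 was 1005 and 898 CPM in WT-Veh, 1181 and 735 CPM in ob/ob-Veh, and 617 and 714 CPM in ob/ob-Rosi, and its groups overlapped in part. Nfkbia was 216 and 487 CPM, 644 and 446 CPM, and 252 and 356 CPM. Adamts4 was 12.4 and 9.37 CPM, 28.6 and 17.9 CPM, and 16.2 and 1.68 CPM. Adamts4 was the one member whose 6 iWAT libraries all lay below its 6 eWAT libraries.

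**Figure D1:**
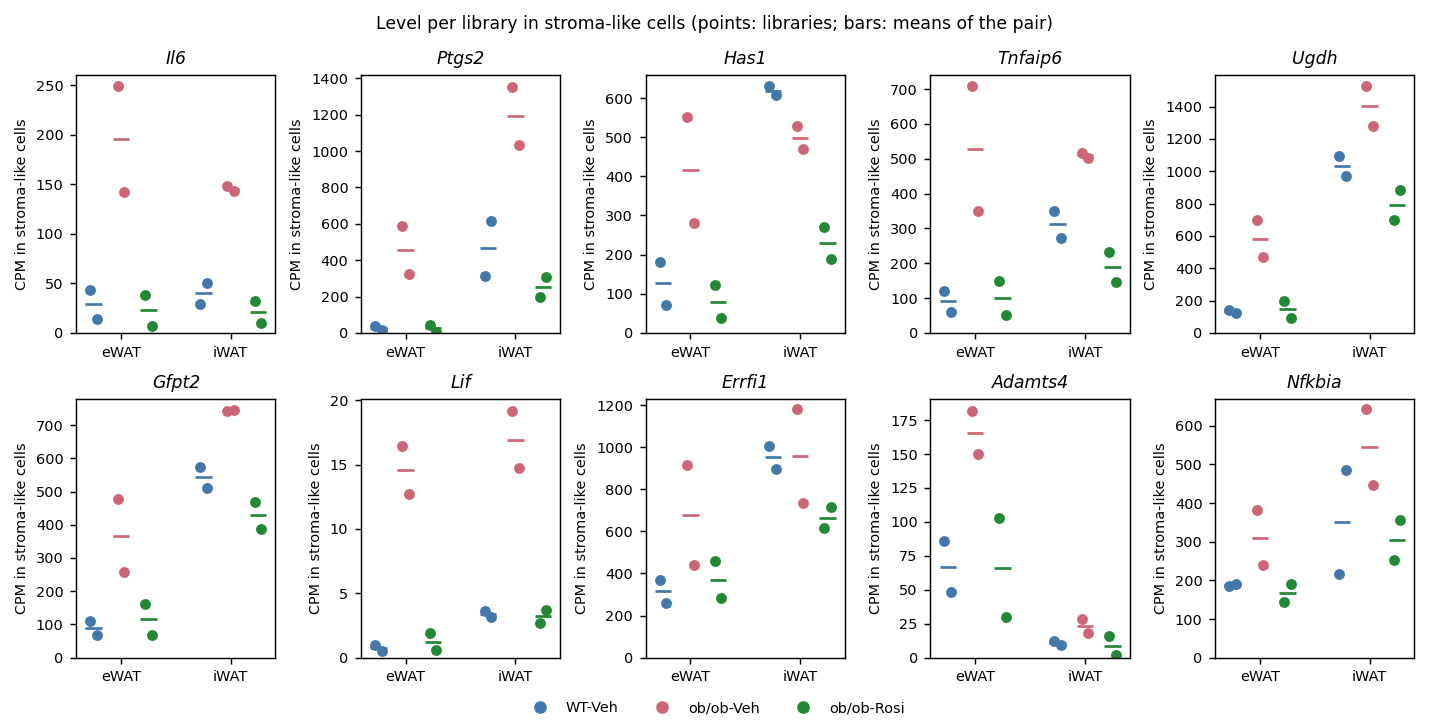
Level of each of the 10 genes in stroma-like cells, in CPM on a linear axis from 0, for the 6 eWAT and 6 iWAT libraries. Points are libraries and bars the mean of the pair; Ptgs2 in ob/ob-Veh iWAT sits at 1353 and 1033 CPM, and Adamts4 is the one gene with all iWAT points below all eWAT points.

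Counted over the 10 members in eWAT stroma, all 10 were higher in ob/ob-Veh than in WT-Veh (median 2.05 on the log2 scale, against 0.00 over all 13114 genes tested), and 5 of them passed the test, beside 2.93% of all genes called higher and 4.28% called lower. In all 10 the libraries of these groups did not overlap, as was so for 58.6% of all genes. Such counts of overlap, here and in iWAT, use CPM after edgeR's TMM scaling, unlike the CPM given above. Against ob/ob-Veh, all 10 were lower in ob/ob-Rosi (median -2.18) and 6 passed, beside 3.49% of all genes called lower and 4.63% called higher; 9 did not overlap (not Errfi1), beside 52.9% of all genes. These contrasts share the ob/ob-Veh libraries and are not separate evidence. Against WT-Veh, ob/ob-Rosi showed 5 members higher and 5 lower (median 0.01), none with an unadjusted p under 0.05, none called by edgeR or DESeq2 and all 10 overlapping, beside 0.0% of all genes called. With a term for the replicate number the counts were 9 and 8. No share of all genes called with that term is given, here or below, so counts with it have no such comparison. Without either WT-Veh library 1 member (Lif) was called between ob/ob-Veh and WT-Veh, without ob/ob-Veh 1 there were 2, and without ob/ob-Veh 2 there were 8. For ob/ob-Rosi against ob/ob-Veh the count was 1 without ob/ob-Rosi 2 and 2 without ob/ob-Veh 1.

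In iWAT stroma, 8 of the 10 members were higher and 2 (Has1 and Errfi1) lower in ob/ob-Veh than in WT-Veh, with a median of 0.61. By edgeR 0 passed the test, beside 0.111% of all 13535 genes called higher and 0.244% called lower. An unadjusted p under 0.05 was found for 3 members and for 2266 of all genes, and DESeq2 called 3 members. The groups did not overlap for 8 members, beside 45.9% of all genes. All 10 were lower in ob/ob-Rosi than in ob/ob-Veh (median -1.20). Lif alone passed by edgeR, beside 0.236% of genes called lower and 0.458% called higher. An unadjusted p under 0.05 was found for 7 members and for 2894 of all 13535 genes. DESeq2 called 5 members, and no share of all genes is given for DESeq2. Here 8 did not overlap after TMM scaling (not Errfi1 and Adamts4), beside 60.9% of genes. By the unscaled CPM given above, Errfi1 and Adamts4 did not overlap either. Against WT-Veh all 10 were lower in ob/ob-Rosi (median -0.43), with 0 called by edgeR, beside 0.0% of genes called. An unadjusted p under 0.05 was found for 1 member and for 384 of all genes, and DESeq2 called 1 member. With a term for the replicate number the counts were 1 and 4 for the first 2 contrasts. Leaving out either iWAT WT-Veh library gave 5 calls between ob/ob-Rosi and ob/ob-Veh, and leaving out any ob/ob library gave 0.

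The depot difference was read as iWAT against eWAT within each group. The stromal levels it compares were in view when the genes were named, so its counts describe the members. In WT-Veh mice 9 of the 10 members were higher in iWAT and 4 passed the test, beside 5.48% of 14059 genes called in either direction. Ptgs2 was 4.25 higher on the log2 scale (SE 0.95, adjusted p = 0.0234, edgeR), Ugdh 3.00 higher (adjusted p = 0.00195), Gfpt2 2.61 higher (adjusted p = 0.00798) and Has1 2.29 higher (adjusted p = 0.0468). Il6 differed by 0.53 (adjusted p = 0.813) and Adamts4 by -2.65 (adjusted p = 0.116). Fos differed by 0.85 (adjusted p = 0.161) and Jun by 0.14 (adjusted p = 0.864). The part of digestion in the depot differences was not tested. With a term for the replicate number within each group, which pairs the eWAT and iWAT libraries of the same number, 8 members passed. Without the eWAT library WT-Veh 2 the count was 1, and without eWAT WT-Veh 1 or iWAT WT-Veh 2 it was 2.

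In ob/ob-Veh mice 0 members passed between depots by edgeR (3 had an unadjusted p under 0.05, and DESeq2 called 1), beside 6.42% of genes. The values were 1.41 for Ptgs2 (adjusted p = 0.417), 1.30 for Ugdh (adjusted p = 0.0715), 1.03 for Gfpt2 (adjusted p = 0.231) and -2.78 for Adamts4 (adjusted p = 0.0733). In ob/ob-Rosi mice Ugdh at 2.52 (adjusted p = 0.00417) and Gfpt2 at 1.99 (adjusted p = 0.0295) passed, beside 4.8% of genes. Ptgs2 stood at 3.49 (adjusted p = 0.0535), with Fos at 1.17 (adjusted p = 0.0573) and Jun at 1.02 (adjusted p = 0.0554) in the same contrast. With the replicate term 3 members passed in ob/ob-Veh and 7 in ob/ob-Rosi, for which no share of all genes is given. Without that term, the 2 members that passed in ob/ob-Rosi became 4 when eWAT ob/ob-Rosi 1 was left out, and without eWAT ob/ob-Rosi 2, iWAT ob/ob-Rosi 2 or either iWAT ob/ob-Veh library 1 passed.

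The interaction of depot with ob/ob-Veh against WT-Veh was negative (a lower value in iWAT) for all 10 members, from -2.84 (Ptgs2) to -0.11. None passed the test of the difference between depots by edgeR (6 had an unadjusted p under 0.05, and DESeq2 called 0), beside 0.469% of genes called. Ugdh differed by -1.70 (adjusted p = 0.287) and Has1 by -2.02 (adjusted p = 0.474), both by edgeR. For ob/ob-Rosi against ob/ob-Veh, 9 interactions were positive and 1 negative (-0.05 to 2.08). By edgeR 0 passed, 1 (Ugdh) had an unadjusted p under 0.05 and DESeq2 called 0, beside 0.22% of genes called.

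**Figure D2:**
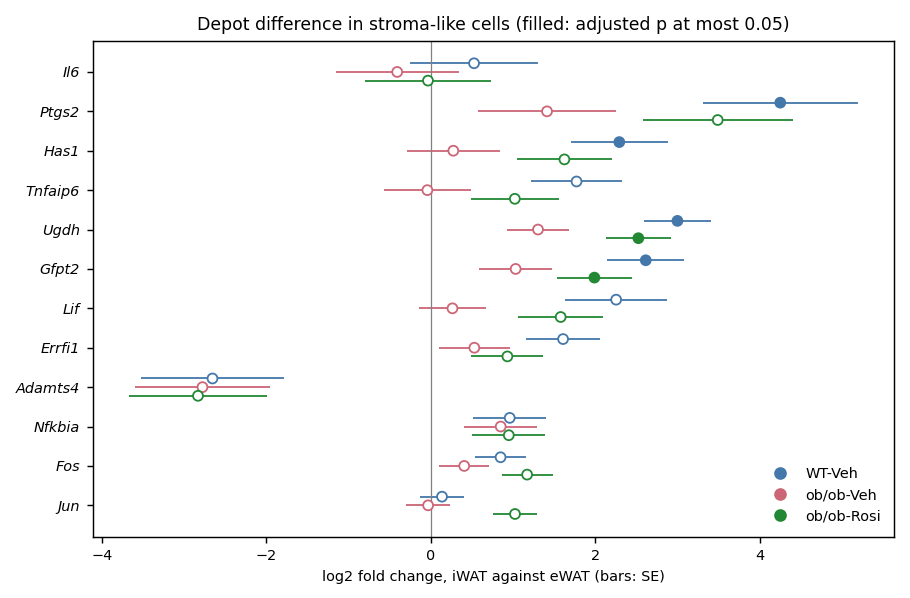
Log2 difference between iWAT and eWAT stroma-like cells in each group, with its standard error, for the 10 members and for Fos and Jun; filled points have an adjusted p of at most 0.05. In WT-Veh, Ptgs2 (4.25), Ugdh (3.00), Gfpt2 (2.61) and Has1 (2.29) are filled, Fos (0.85) and Jun (0.14) are not, and Adamts4 lies below 0 in all 3 groups.

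Within stroma, clusters with the markers Pi16 and Dpp4 (progenitor-like) and clusters with Icam1, Cd36 and Fabp4 (preadipocyte-like) differed in most members. In iWAT, Ptgs2 was higher in progenitor-like than in preadipocyte-like cells of all 6 libraries, with a median ratio of 26.9 (16.1 to 88.6). The median ratio was 12.1 for Has1, 8.82 for Gfpt2, 8.72 for Ugdh, 4.70 for Errfi1, 4.47 for Il6, 3.36 for Lif, 2.23 for Tnfaip6 and 1.97 for Nfkbia, and all of these were higher in 6 of 6 libraries. Adamts4 went the other way, with a median ratio of 0.352 and 1 library higher, as did Jun at 0.475, while Fos stood at 0.934. The sub-clusters were nearly all split by group, so the names were rebuilt from cells that differ by condition, and the ratios are descriptions. In ob/ob-Veh they rest in large part on a sub-cluster with macrophage genes among its leading genes.

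In eWAT the ratio could be read in 4 libraries, because no sub-cluster with preadipocyte-like markers held enough ob/ob-Veh cells. Ptgs2 (5.48), Ugdh (5.99), Gfpt2 (5.65) and Errfi1 (1.79) were higher in progenitor-like cells in 4 of 4 libraries. Il6 at 0.863, read from 2 UMIs in the progenitor-like cells of 2 libraries, and Tnfaip6 at 1.22 were higher in 2 of 4, and Adamts4 at 0.424 in 0 of 4.

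Among progenitor-like cells alone, Ptgs2 stood at 105 and 93.8 CPM in WT-Veh eWAT, 879 and 607 CPM in ob/ob-Veh and 95.0 and 25.8 CPM in ob/ob-Rosi. Il6 stood at 4.48 and 21.0 CPM, 221 and 143 CPM, and 22.4 and 7.37 CPM. Lif had 0 UMIs in both WT-Veh libraries, 270 and 101 in ob/ob-Veh, and 1 and 1 in ob/ob-Rosi. The ob/ob-Veh libraries again lay above all others, and the difference between ob/ob-Veh and WT-Veh was 3.64 for Il6 (adjusted p = 0.000162, edgeR), 2.89 for Ptgs2 (adjusted p = 0.000474), 2.52 for Tnfaip6 (adjusted p = 0.00764) and 1.66 for Adamts4 (adjusted p = 0.0378). With Lif (adjusted p = 0.0043, edgeR), 5 members passed, beside 1.39% of genes called higher in these cells. Lif passed the filter on low counts there through ob/ob-Veh alone, so its call is a description. Between ob/ob-Rosi and ob/ob-Veh, 6 passed, beside 0.849% of genes called lower, which were Il6 (-3.33), Ptgs2 (-3.43), Has1 (-2.41), Tnfaip6 (-2.19), Adamts4 (-1.87, adjusted p = 0.033, edgeR) and Nfkbia (-1.30, adjusted p = 0.026), while Lif stood at -3.16 (adjusted p = 0.0512). Ugdh, which differed by 2.11 in all stroma-like cells, differed by 0.76 among progenitor-like cells (adjusted p = 0.161), and Gfpt2 by 0.81 (adjusted p = 0.191). Progenitor-like cells numbered 210 and 128 in WT-Veh eWAT, 2090 and 1216 in ob/ob-Veh, and 230 and 56 in ob/ob-Rosi, and different sub-clusters held them: 1572 and 1723 of the ob/ob-Veh cells were in 2 sub-clusters with 12 and 5 WT-Veh cells, and 321 of the WT-Veh cells in one with 11 from ob/ob-Veh. The leading genes of the sub-cluster with 1723 ob/ob-Veh cells included Igkc, which also led the B-like cells, and neither Pi16 nor Dpp4. It held Pi16 at 611 and Dpp4 at 165 CPM, beside 1297 and 297 CPM in the sub-cluster with 1572. A sub-cluster of eWAT stroma not named progenitor-like held 574 and 62.9 CPM. The part of these cells in the calls of the progenitor-like class was not tested. More cells of a subclass, other cells within it and more RNA per cell cannot be told apart over all stroma.

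The iWAT sub-clusters with progenitor markers are described one by one, since the groups fell in different sub-clusters. That of 1792 cells is described further below. The class they make up was fitted as an alternative setting alone, and no call is read from it. A sub-cluster of 3615 cells, 3573 of them from ob/ob-Veh, had the macrophage marker Mrc1 and the macrophage genes F13a1, Cd209f and Retnla among its 10 leading genes and none of the progenitor markers, although it held Pi16 at 4119 CPM and Dpp4 at 749 CPM. It held Ptgs2 at 423 CPM and Il6 at 48.1 CPM. A sub-cluster of 3024 cells, 1076 from WT-Veh and 1937 from ob/ob-Rosi, held Ptgs2 at 1056 and Il6 at 63.2 CPM, and one of 2174 cells, 868 and 1294 from these groups, held Ptgs2 at 129 and Il6 at 6.56 CPM. By library, the first of these 2 held 1 and 1075 WT-Veh and 37 and 1900 ob/ob-Rosi cells, and the second 3 and 865 and 32 and 1262. A sub-cluster of 1031 cells, 126 and 10 from WT-Veh and 780 and 107 from ob/ob-Rosi, held Ptgs2 at 504 and Il6 at 38.9 CPM. Ptgs2 and Il6 thus varied among sub-clusters of lean and treated cells. Each of these came mostly from 1 library per group, and levels were pooled over groups. What part macrophage RNA had in the sub-cluster of 3615 cells was not tested.

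**Figure D3:**
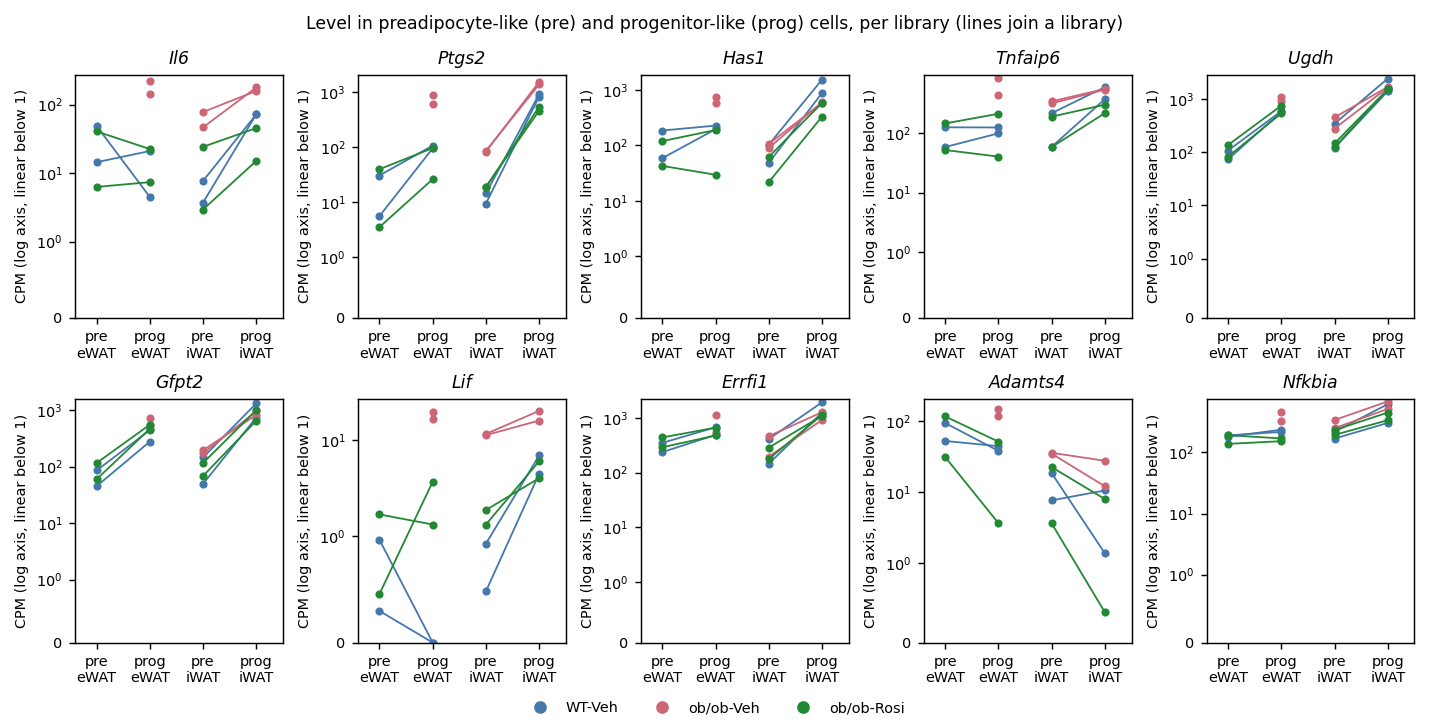
CPM of each member in preadipocyte-like and progenitor-like stroma of each library. In eWAT, ob/ob-Veh has progenitor-like points alone, which include a sub-cluster of 1745 cells with neither Pi16 nor Dpp4 among its leading genes. In iWAT the progenitor-like points for Ptgs2 lie above the preadipocyte-like points in 6 of 6 libraries and those for Adamts4 in 1 of 6; the iWAT progenitor-like points of ob/ob-Veh include a sub-cluster of 3615 cells with macrophage genes among its leading genes.

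Finer sub-clusters differed in which members they held. In eWAT a sub-cluster of 998 cells, 997 of them from ob/ob-Veh, held Il6 at 642 CPM, Tnfaip6 at 1164 CPM and Adamts4 at 562 CPM, with Fos at 4761 and Jun at 3227 CPM. Another of 1597 progenitor-like cells, 1572 from ob/ob-Veh, held Ptgs2 at 1127, Has1 at 979 and Ugdh at 1337 CPM, with Il6 at 278 CPM. A further 2417 cells, 2406 from ob/ob-Veh, held Il6 at 16.8 CPM and Ptgs2 at 24.5 CPM but Lif at 11.2 CPM. In eWAT the highest Il6 and the highest Ptgs2 were thus in different sub-clusters. In iWAT they were in the same one, 1792 progenitor-like cells, 1763 of them from ob/ob-Veh, with Il6 at 238 CPM and Ptgs2 at 2112 CPM.

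Cells with a Has1 UMI, after each cell was thinned to 700 UMIs, carried other members more often than cells without one. Il6 was found in a median of 9.09% of Has1-positive and 1.05% of Has1-negative cells (higher in 12 of 12 libraries), Ptgs2 in 33.0% and 6.12% (12 of 12) and Ugdh in 53.0% and 20.2% (12 of 12). Adamts4 was found in 5.26% and 1.22% (10 of 12) and Nfkbia in 23.0% and 12.7% (9 of 12). Lif did not follow, with 0.681% and 0.258% and 6 of 12 libraries, at a level close to 1 UMI in several of them. At the same depth, cells with 3 or more of the 10 members made 3.76% and 1.43% of WT-Veh eWAT stroma, 29.1% and 13.1% of ob/ob-Veh and 4.74% and 0.897% of ob/ob-Rosi, and in iWAT 24.9% and 30.1%, 33.9% and 26.1%, and 15.4% and 19.7%. In eWAT the ob/ob-Veh libraries stood apart, while in iWAT the WT-Veh and ob/ob-Veh libraries overlapped.

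Fos and Jun were high in stroma of every library. Fos was 1621 and 1874 CPM in WT-Veh eWAT, 2700.4 and 2053 CPM in ob/ob-Veh, and 1616 and 1192 CPM in ob/ob-Rosi, and in iWAT 2787 and 3325 CPM, 3112 and 3046 CPM, and 3200.0 and 2752 CPM. Jun was 942 and 1379.8 CPM, 1566 and 1469.9 CPM, and 931 and 762 CPM in eWAT, and 1199.7 and 1272 CPM, 1361 and 1527 CPM, and 1724 and 1517 CPM in iWAT. The ob/ob-Veh eWAT libraries were thus highest for both genes, as for the members. By edgeR, Fos differed by 0.41 (adjusted p = 0.451) and Jun by 0.35 (adjusted p = 0.503) between ob/ob-Veh and WT-Veh eWAT, and by -0.74 (adjusted p = 0.164) and -0.81 (adjusted p = 0.104) between ob/ob-Rosi and ob/ob-Veh.

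The members were also read by the level of digestion genes in the cells of each library. The stroma-like cells of each library were ranked by the summed UMIs of 18 digestion genes and split into 3 equal parts, and the members were read in the bottom and the top part. Of 120 pairs of a member and a library, 116 were higher in the top part. No share of all genes higher in the top part is given, so this count has no such comparison. The parts also mix sub-clusters, which in eWAT held Fos at 498 to 4761 CPM. Il6 had a median ratio of 32.9 in eWAT and 26.0 in iWAT, Has1 35.6 and 19.4, Ptgs2 11.1 and 18.1, and Adamts4 19.7 and 5.79. Tnfaip6 had 7.40 and 10.6, Ugdh 3.88 and 4.50, Gfpt2 2.15 and 2.73, Errfi1 1.92 and 3.36, and Nfkbia 1.75 and 3.77. A ratio needed more than 3 UMIs in the bottom part, which left 5 and 4 libraries for Il6 and 5 for Adamts4 in iWAT. For Lif it left the 2 ob/ob-Veh libraries of eWAT (1.57 and 1.48) and 4 of iWAT (0.755 to 1.76, median 1.09), and Lif was higher in the top part in 4 of 6 libraries of each depot, some of them with 0 to 3 UMIs.

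The group order was also read within the bottom part, where the digestion genes were lowest. Il6 was 2.42 and 0.486 CPM there in WT-Veh eWAT, 10.4 and 9.78 CPM in ob/ob-Veh, and 2.57 and 1.83 CPM in ob/ob-Rosi. Ptgs2 was 5.45 and 2.92 CPM, 43.2 and 15.3 CPM, and 9.26 and 2.35 CPM, and Lif was 0.606 and 0 CPM, 12.3 and 9.78 CPM, and 0 and 0.784 CPM. For these 3 genes the ob/ob-Veh libraries stayed above the others, with Il6 and Ptgs2 at a small fraction of their level in the top part, where Il6 reached 475 and 322 CPM and Ptgs2 941 and 675 CPM in ob/ob-Veh. The parts were cut within each library, so the bottom parts were not matched between groups in their level of digestion genes. The lowest of these values rest on few UMIs. For Has1, the bottom part held 17.0 and 3.40 CPM in WT-Veh and 35.9 and 9.57 CPM in ob/ob-Veh, which overlapped.

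Stroma-like cells of eWAT were also taken that had no Fos or Jun UMI after each cell was thinned to 700 UMIs. These cells were summed at full depth, where they can hold Fos or Jun UMIs, and how many do was not tested. Their median depth was 1159 and 2766 UMIs in WT-Veh, 5075 and 3685.5 in ob/ob-Veh, and 2050 and 4508 in ob/ob-Rosi. In these cells 5 members passed the test between ob/ob-Veh and WT-Veh, beside 1.7% of genes called higher. They were Il6 at 3.03 (adjusted p = 0.0236, edgeR), Ptgs2 at 3.70 (adjusted p = 0.016), Ugdh at 1.69 (adjusted p = 0.0165), Gfpt2 at 1.63 (adjusted p = 0.0422) and Lif at 4.47 (adjusted p = 0.00321). Lif could not have passed the filter on low counts there without the ob/ob-Veh libraries, so its calls in these cells are descriptions. Tnfaip6 at 1.96 (adjusted p = 0.0649) did not pass, and Adamts4 at 0.16 and Nfkbia at 0.02 stood near 0. Between ob/ob-Rosi and ob/ob-Veh, 5 passed in such cells, beside 2.1% of genes called lower: Il6 at -3.53, Ptgs2 at -3.81, Has1 at -2.58, Ugdh at -1.65 and Lif at -3.77. How much of the group differences in Adamts4 and Nfkbia went with digestion was not tested.

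**Figure D4:**
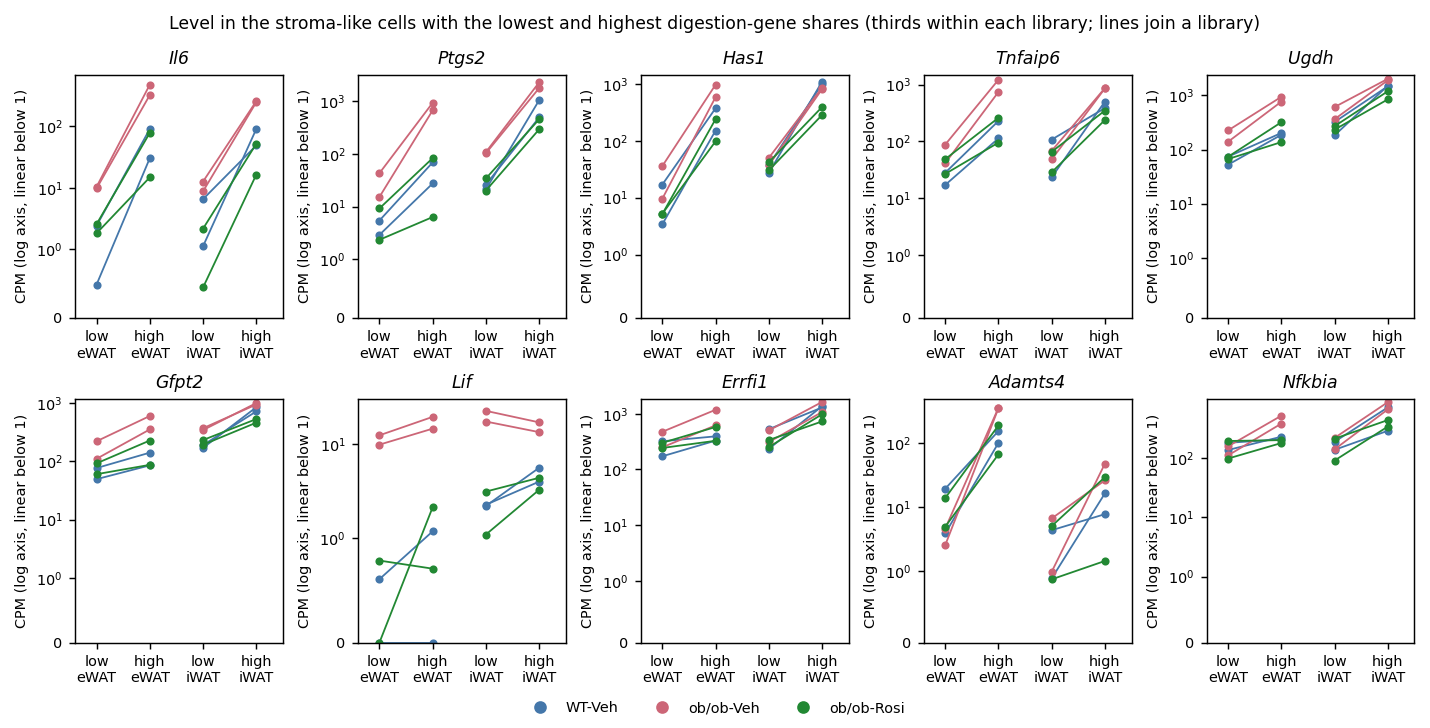
CPM of each member in the stroma-like cells with the fewest and the most UMIs of 18 digestion genes (bottom and top of 3 equal parts of each library); lines join the values of 1 library, and the axis is logarithmic above 1 CPM and linear below. The lines rise in 116 of 120 pairs, for which no share of all genes is given. Those of Lif rise in 4 of 6 libraries of each depot and rest on few UMIs.

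Among stroma-like, endothelial-like, macrophage-like, lymphoid-like, dendritic-like, B-like and mesothelial-like cells, as far as each was found in a depot, 8 of the 10 members had their highest median level in stroma in both depots, at full depth and thinned. No cluster was named mural-like, and the 20854 unnamed cells were left out of that order. Among the unnamed were 191 eWAT cells with Acta2 and Myh11 among their leading genes, 4435 led by Mmp12 and Gpnmb, and 3400 with Ear2 and Ccr2. Mast-like cells were left out of that order, with 20 or more cells in 1 library alone (21 cells, eWAT ob/ob-Veh 1), where Il6 had 3 UMIs (65.6 CPM), Ptgs2 4 (87.5 CPM) and Nfkbia 54 (1181 CPM). Neutrophil-like cells of iWAT, 31 to 67 in each of 4 libraries of WT-Veh and ob/ob-Rosi, were left out too, and held Ptgs2 at 212 to 463 CPM (median 357), which overlapped the iWAT stroma (195 to 1353, median 464) and was above the medians of 7.20 to 27.5 CPM in the other iWAT classes. The exceptions were Lif, highest in lymphoid-like cells, and Nfkbia, highest in macrophage-like cells. Adamts4 in iWAT had its highest median CPM in stroma, but within libraries the endothelial-like cells held a median of 127% of its stromal level (35.4% to 261%). As a measure of free RNA and mixed droplets, the stromal markers were read in the other classes, where they reached a median of 4.84% of their stromal level in endothelial-like, 2.28% in macrophage-like and 7.14% in lymphoid-like cells of eWAT, and 5.04% and 2.84% in endothelial-like and macrophage-like cells of iWAT. Has1 stood at 3.06%, 1.22%, 2.04%, 1.91% and 1.80% of its stromal level in the same 5, Tnfaip6 at 4.02%, 2.75%, 4.53%, 3.81% and 2.62%, and Gfpt2 at 4.12%, 2.53%, 7.99%, 2.56% and 2.89%. The medians of these 3 genes were thus near the share of the stromal markers, although Gfpt2 exceeded it in 5 of 6 libraries of eWAT macrophage-like cells. The part of free stromal RNA in their counts outside stroma was not tested.

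Other members exceeded that share. Nfkbia reached 389% of its stromal level in eWAT macrophage-like cells and 234% in iWAT. Il6 reached 14.1% in eWAT and 58.5% in iWAT macrophage-like cells, and was over 3 times the share of the stromal markers in 5 of 6 libraries of each depot. Ptgs2 reached 36.2% in eWAT macrophage-like cells, from 5.94% to 196% by library. Adamts4 reached 27.5% in eWAT and 127% in iWAT endothelial-like cells, but 0.471% in eWAT macrophage-like cells, and Lif reached 183% and 317% in lymphoid-like cells. Thinned to 700 UMIs, 2.32% to 16.6% of eWAT stroma-like cells carried Has1 against 0.0282% to 1.01% of macrophage-like cells, and Il6 was carried by 0.285% to 9.03% of stroma-like and 0.131% to 2.11% of macrophage-like cells.

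**Figure D5:**
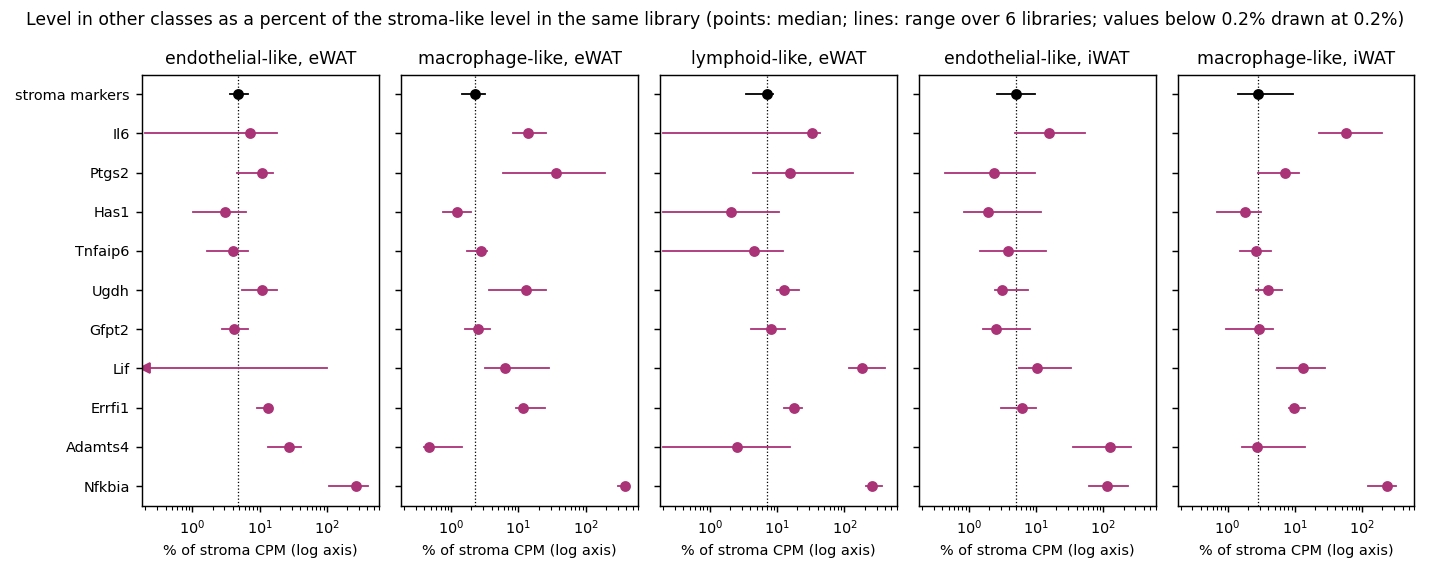
Level of each member in other cell classes as a percentage of its level in stroma-like cells of the same library, on a log axis; points are medians and lines ranges over 6 libraries, and the dotted line is the median for the stromal markers. The medians of Has1 stay near or below the dotted line in all 5 classes drawn. Those of Nfkbia, of Lif in lymphoid-like cells and of Adamts4 in iWAT endothelial-like cells (127%) lie above 100%.

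The macrophage-like cells of the groups fell in different clusters, so a difference between kinds of macrophage and a difference within cells cannot be told apart. In eWAT 1 cluster held 1827 and 1817 ob/ob-Veh cells, with 7 and 8 from WT-Veh and 41 and 6 from ob/ob-Rosi, while the larger of the others held 3283 and 993 WT-Veh and 1782 and 1980 ob/ob-Rosi cells with 45 and 40 from ob/ob-Veh.

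Il6 in eWAT macrophage-like cells was 4.12 and 2.16 CPM in WT-Veh, 31.7 and 36.7 CPM in ob/ob-Veh and 3.18 and 1.56 CPM in ob/ob-Rosi. The ob/ob-Veh libraries stood apart, by 3.25 from WT-Veh (SE 0.40, adjusted p = 0.00162, edgeR) and by -3.73 for ob/ob-Rosi against ob/ob-Veh (SE 0.41, adjusted p = 0.00106), while the stromal markers in these cells ran at 550.3–1082, 736–931 and 760.4–833 CPM and overlapped. In iWAT macrophage-like cells Il6 was 26.3 and 32.6 CPM, 33.9 and 42.1 CPM, and 16.7 and 19.6 CPM, and it was not called. With Il6, 3 of 9 members tested were called higher in eWAT macrophage-like cells of ob/ob-Veh, Tnfaip6 at 2.65 and Errfi1 at 0.96 among them, beside 9.29% of all genes, and 5 were called lower in ob/ob-Rosi, beside 9.6% of genes. Tnfaip6 and Errfi1 were also highest in ob/ob-Veh in stroma, and the part of free stromal RNA in these calls was not tested.

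The iWAT macrophage-like cells had 5 members called higher in ob/ob-Veh than in WT-Veh, beside 6.17% of genes: Ptgs2 (1.83), Has1 (1.40), Tnfaip6 (1.66), Ugdh (1.35) and Gfpt2 (1.64). Of these, 4 were called lower in ob/ob-Rosi, beside 9.99% of genes. Here too the clusters differed: 2753 and 2064 ob/ob-Veh cells fell in 1 cluster with 8 and 2 from WT-Veh and 58 and 12 from ob/ob-Rosi, while another held 20 and 1127 from WT-Veh, 285 and 3016 from ob/ob-Rosi and 3 and 11 from ob/ob-Veh. The stromal markers in these cells moved the same way, at 394–509 CPM in WT-Veh, 3162–3661 CPM in ob/ob-Veh and 1065–1130 CPM in ob/ob-Rosi. The part of free stromal RNA in these calls was not tested.

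Ptgs2 in endothelial-like cells was called higher in ob/ob-Veh in eWAT (3.28, adjusted p = 0.0386, edgeR) and iWAT (3.86, adjusted p = 0.0329), and lower in ob/ob-Rosi in both (-3.32 and -3.69). In all, 3 members were called higher in eWAT endothelial-like cells, beside 1.44% of genes, and 2 lower in ob/ob-Rosi, beside 1.89%. In iWAT 3 were called higher, beside 0.67%, and 4 lower, beside 0.379%. The stromal markers stood at 1552–2111, 1935–2037 and 1428–1641 CPM in eWAT and at 766–1598, 2987–3723 and 1247–1688 CPM in iWAT endothelial-like cells, so they were higher in ob/ob-Veh in iWAT and overlapped between ob/ob-Veh and WT-Veh in eWAT. In eWAT they were higher in ob/ob-Veh than in ob/ob-Rosi. Ptgs2 stood at a median of 10.8% of its stromal level in eWAT and 2.33% in iWAT endothelial-like cells, beside 4.84% and 5.04% for the stromal markers. It exceeded the marker share in 5 of 6 eWAT and 1 of 6 iWAT libraries. Ptgs2 in stroma was itself highest in ob/ob-Veh in both depots, and the part of free stromal RNA in the endothelial calls of either depot was not tested. The iWAT endothelial-like cells of WT-Veh 1 and WT-Veh 2 were mostly in clusters of their own (1726 and 943 cells, with 1 and 6 and with 0 and 9 from ob/ob-Veh), and another held 106 and 612 from ob/ob-Veh with 1958 and 1861 from ob/ob-Rosi, so kinds of cell and levels within cells cannot be told apart between ob/ob-Veh and WT-Veh. Adamts4 in endothelial-like cells was 35.3 and 13.6 CPM, 36.9 and 19.9 CPM, and 27.6 and 11.5 CPM in eWAT, with overlapping groups.

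Lif in lymphoid-like cells of eWAT was 1.56 and 0.566 CPM in WT-Veh, 32.2 and 49.7 CPM in ob/ob-Veh and 3.26 and 2.24 CPM in ob/ob-Rosi, from 1 and 1, 62 and 71, and 1 and 4 UMIs. The ob/ob-Veh libraries were far above the rest, by 5.28 from WT-Veh (SE 0.62, adjusted p = 0.000224, edgeR) and by -3.87 for ob/ob-Rosi against ob/ob-Veh (SE 0.55, adjusted p = 0.00117). Lif passed the filter on low counts in these cells through ob/ob-Veh alone, and the first difference rests on 1 UMI in each WT-Veh library. These values are therefore descriptions. In iWAT, Lif had 0 and 20 UMIs in WT-Veh, 17 and 14 in ob/ob-Veh and 8 and 16 in ob/ob-Rosi, over 164 and 1269, 94 and 90, and 371 and 977 cells. Lif was the 1 gene of 6950 called higher in iWAT lymphoid-like cells of ob/ob-Veh (4.71, adjusted p = 0.0304, edgeR), 0.0144% of those tested. Here too Lif passed the filter on low counts through ob/ob-Veh alone, so its call is a description. No member was called lower there in ob/ob-Rosi by edgeR (2 had an unadjusted p under 0.05).

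In eWAT lymphoid-like cells, 7 of 9 members tested were called higher in ob/ob-Veh, beside 2.63% of genes, and 7 were called lower in ob/ob-Rosi, beside 2.39%. The 9 include Lif and Il6, which could not have passed the filter on low counts there without the ob/ob-Veh libraries. These counts are therefore descriptions. The stromal markers in these cells overlapped between the groups, at 1311–2913, 2366–2829 and 2143–2532 CPM. Il6 there was 12.5 and 2.83 CPM, 103 and 62.3 CPM, and 0 and 2.80 CPM. Dendritic-like cells of eWAT had Tnfaip6 (5.14, adjusted p = 0.0023, edgeR) called higher in ob/ob-Veh, beside 0.109% of genes, and 4 members called lower in ob/ob-Rosi, beside 0.389%, with stromal markers at 528–1572, 2022–2771 and 551–1792 CPM. Mesothelial-like cells of eWAT had Ugdh (1.25) and Gfpt2 (2.27) called higher in ob/ob-Veh, beside 1.07% of genes, and none lower in ob/ob-Rosi by edgeR (3 had an unadjusted p under 0.05). B-like cells had no member called in either depot by edgeR (of 4 tested in eWAT and 6 in iWAT, 2 and 1 had an unadjusted p under 0.05 between ob/ob-Veh and WT-Veh). Over all classes in eWAT, 16 calls between ob/ob-Veh and WT-Veh became 6 without ob/ob-Veh 1 or WT-Veh 2 and 8 without WT-Veh 1, and 18 calls between ob/ob-Rosi and ob/ob-Veh became 2 without ob/ob-Rosi 2 and 7 without ob/ob-Veh 1. In iWAT, 9 and 8 calls became 0 and 0 without either ob/ob-Veh library, and the latter became 3 without either ob/ob-Rosi library and 15 without either WT-Veh library. With the replicate term the eWAT counts were 25 and 27 and the iWAT counts 11 and 14. How far free stromal RNA entered the lymphoid-like, dendritic-like and mesothelial-like values was not tested.

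The other genes of these pathways were read from 7 lists in stroma. Of 18 digestion genes, 6 rose in ob/ob-Veh eWAT and 6 fell in ob/ob-Rosi (medians 0.84 and -1.04), beside 2.93% of all genes called higher and 4.28% lower in ob/ob-Veh and 4.63% higher and 3.49% lower in ob/ob-Rosi, shares that stand beside all the list counts of eWAT that follow, with Hspa1b at 1.69, Zfp36 at 1.67 and Dusp1 at 1.61 between ob/ob-Veh and WT-Veh, and Zfp36 at -2.07, Atf3 at -1.70 and Egr1 at -1.55 between ob/ob-Rosi and ob/ob-Veh. Of 26 NF-κB genes, 5 rose and 7 fell (medians 0.39 and -0.64), led by the chemokine Cxcl10 at 3.74 (adjusted p = 0.00808, edgeR) and -4.44 (adjusted p = 0.00416). Irf1, an interferon-responsive transcription factor, stood at 1.85 and -2.34, and Nfkbiz, a nuclear IκB protein, at 1.77 and -2.02.

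Of 11 tested hyaluronan genes, Uap1, which makes UDP-N-acetylglucosamine, was the 1 that rose (1.83, adjusted p = 0.0154, edgeR) and the 1 that fell (-1.52). In the IL-6 family list, with 16 genes tested, 2 rose and 1 fell in ob/ob-Veh, and 2 rose and 4 fell in ob/ob-Rosi. The feedback inhibitors Socs3 (1.69 and -2.28) and Socs1 (1.66 and -2.30) moved as the members did. In the prostaglandin list, with 17 tested, 0 rose and 3 fell in ob/ob-Veh, which were the prostaglandin D synthase Hpgds (-3.73) and the receptors Ptger3 (-2.25) and Ptgir (-1.48), and 2 rose in ob/ob-Rosi, Hpgds at 3.05 and Ptgir at 1.61. Ptgs2 thus rose where these 3 genes fell. The macrophage markers in the same cells were also lowest in ob/ob-Veh, at 1371–1907 CPM in WT-Veh, 267–492 in ob/ob-Veh and 1396–1586 in ob/ob-Rosi. The part of macrophage RNA in these values was not tested.

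Among 11 genes of the EGF receptor list, the ligand Ereg fell (-5.14, adjusted p = 0.00242, edgeR) and the inhibitor Spry2 rose (1.40) in ob/ob-Veh, and in ob/ob-Rosi Ereg rose (4.90) while the ligand Tgfa (-2.62) and Spry2 (-1.31) fell. Of 8 tested ADAMTS genes, 0 were called in ob/ob-Veh, where Adamts1 stood at 1.36 (adjusted p = 0.0515), while Adamts9 rose (1.88) and Adamts1 (-1.72) and Adamts5 (-1.41) fell in ob/ob-Rosi. In iWAT no gene of the 7 lists was called by edgeR between ob/ob-Veh and WT-Veh (DESeq2 called 6), and Irf1 alone was called between ob/ob-Rosi and ob/ob-Veh (-2.00, adjusted p = 0.0445). Of the genes reported here, the smallest p values of the iWAT lists between ob/ob-Veh and WT-Veh belonged to Hspa1a (0.80), Irf1 (1.29), Has2 (1.56), Tbxas1 (1.71), Tgfa (4.46) and Adamts9 (-1.36), and between ob/ob-Rosi and ob/ob-Veh to Hspa1a (-1.31), Has2 (-0.91), Ptgs1 (1.24), Tgfa (-3.06) and Adamts9 (1.61) in the lists without a call.

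Over the 7 lists, 20 eWAT calls between ob/ob-Veh and WT-Veh became 6 without WT-Veh 1, 11 without WT-Veh 2 and 8 without ob/ob-Veh 1, and 28 between ob/ob-Rosi and ob/ob-Veh became 10 without ob/ob-Veh 1 and 11 without ob/ob-Rosi 2. With the replicate term the counts were 43 and 42 in eWAT and 2 and 11 in iWAT. In iWAT the single call between ob/ob-Rosi and ob/ob-Veh became 29 without either WT-Veh library and 0 without any ob/ob library.

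Over the 12 stroma sums, the 5 genes whose log2 level went most closely with the mean of the 10 members were Cxcl1 (Pearson r = 0.986), Ier5 (0.976), Adgrd1 (0.955), Egr1 (0.955) and Junb (0.953), of 12778 genes tested in both depots. Fos had r = 0.809 and ranked 494 and Jun had r = 0.628 and ranked 1895. These are descriptions over 12 libraries that share depots and groups. Against the mean of the other 9, Tnfaip6 had the closest pattern of the members (0.977), followed by Ptgs2 (0.956) and Has1 (0.913), and Adamts4 had the least (-0.143).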

How the data were processed

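Deposited per library were UMI counts per gene and barcode; the authors made them with Cell Ranger 3.0.2 after bcl2fastq 2.19.1.403, against mm10. The iWAT matrices had been filtered on mitochondrial share and UMIs before deposit. Barcodes with 700 to 22000 UMIs, 200 to 6000 genes and under 25% mitochondrial UMIs were kept; no doublet caller was run, and 1364 cells of stromal sub-clusters led by macrophage markers were taken out of stroma. Cells of each depot were clustered with scanpy 1.11.5 (Leiden, resolution 1, and 0.6 within stroma) with the members, the pathway lists and mitochondrial genes left out, and clusters were named from markers; 20854 cells stayed unnamed. Counts were summed per library and class. Sums were tested with edgeR 4.0.16 (TMM, quasi-likelihood, R 4.3.3), and calls needed an adjusted p of at most 0.05 over all genes tested and at least 1.1-fold. The tests were checked on simulated data. DESeq2 1.42.0, other normalizations, filters, subclasses and left-out libraries were alternatives; removal of shared barcodes was added after seeing the data. Named list genes were up to 3 called per list, depot and contrast with the largest change and no overlap of libraries, or the 1 with the smallest p where none was called; 1 gene that this rule names is counted in its list and not reported here. The members and lists were chosen with earlier results of these data known. With 2 libraries per group, p-values measure the spread between these libraries. Levels are not compared between genes, since 3′ counts depend on the gene.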

Additional observations from a re-analysis of the deposited data

Results flagged for a closer look

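Has1 had opposite signs in the 2 depots, with the eWAT difference past the threshold with a replicate term and not in the fit without one (adjusted p = 0.000611 and 0.134 in eWAT, and 0.561 in iWAT by edgeR): both ob/ob-Veh libraries lay above both WT-Veh libraries in eWAT stroma-like cells (552 and 282 against 181 and 72.0 CPM) and below them in iWAT (528 and 469 against 630.5 and 608 CPM). The interaction of depot and genotype for Has1 was -2.02 on the log2 scale (SE 0.81, adjusted p = 0.474 by edgeR over all genes tested), so the difference between depots did not pass the threshold. The iWAT library labelled WT-Veh 1 rests on 377 stroma-like cells.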

How the results depend on the processing

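No value called in either fit changed sign under an alternative. Of 2050 single-gene values, 80 changed sign, none of them called in either fit, among them iWAT Errfi1 between ob/ob-Veh and WT-Veh (-0.47 to 0.35 with 1 library left out). In all, 1859 kept their side of the threshold, 51 lost it and 140 gained it. Counts in iWAT progenitor-like cells, here for completeness, rest in ob/ob-Veh largely on a sub-cluster with macrophage genes among its leading genes. Those in eWAT progenitor-like cells rest in ob/ob-Veh in large part on a sub-cluster with neither Pi16 nor Dpp4 among its leading genes. Cells without Fos or Jun UMIs are here those with none after thinning to 700 UMIs. Of the counts of calls, the main values and those that moved were as follows. Stroma members, eWAT ob/ob-Veh against WT-Veh: 5, 9 with no filter on low counts and 1 to 8 with 1 library left out. ob/ob-Rosi against ob/ob-Veh: 6, 10 with no filter, 1 to 8. In iWAT ob/ob-Veh against WT-Veh: 0, 3 by DESeq2, 4 with no filter, 2 in preadipocyte-like cells, 1 without Fos or Jun UMIs, 0 to 1; ob/ob-Rosi against ob/ob-Veh: 1, 5 by DESeq2, 6 with no filter, 3 thinned, 3 in progenitor-like and 2 in preadipocyte-like cells, 2 without cells with markers of other classes, 0 to 5; ob/ob-Rosi against WT-Veh: 0, 1 by DESeq2 and with no filter.

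List genes, eWAT ob/ob-Veh against WT-Veh: 20, 37 by DESeq2, 44 with no filter, 11 without Fos or Jun UMIs, 13 in progenitor-like cells, 6 to 30; ob/ob-Rosi against ob/ob-Veh: 28, 12 without Fos or Jun UMIs, 12 in progenitor-like cells, 10 to 36. In iWAT: 0, 6 by DESeq2, 1 with the Pdgfra gate, 14 with no filter, 3 in preadipocyte-like and 2 in progenitor-like cells, 0 to 9; and 1, 21 by DESeq2, 2 with the gate, 8 thinned, 4 without shared barcodes, 3 without cells with markers of other classes, 4 by library size alone, 26 with no filter, 5 in preadipocyte-like and 11 in progenitor-like cells, 0 to 29.

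Depot differences in WT-Veh: 4, 7 by DESeq2, 9 with no filter, 1 to 5; in ob/ob-Veh: 0, 1 by DESeq2, 2 thinned, 1 without shared barcodes, 4 with no filter, 0 to 1; in ob/ob-Rosi: 2, 4 by DESeq2, thinned and without shared barcodes, 7 with no filter, 1 to 4; interactions: 0, 5 and 1 with no filter. Other classes, eWAT: 16, 6 thinned, 35 with no filter, 6 to 23; and 18, 6 thinned, 33 with no filter, 2 to 25; iWAT: 9, 0 to 13; and 8, 13 with no filter, 0 to 15. The eWAT fit of preadipocyte-like cells could not be made, since the ob/ob-Veh libraries held 14 and 10 cells so named, under the minimum of 20. Causes were not tested.

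In fits with a replicate block, the counts were 9 and 8 for eWAT members, 1 and 4 for iWAT members, 43, 2 and 11 for list genes in eWAT ob/ob-Veh against WT-Veh and the iWAT contrasts, 8, 3 and 7 for the depots, and 25 and 14 for other classes in eWAT ob/ob-Veh against WT-Veh and iWAT ob/ob-Rosi against ob/ob-Veh. Same-numbered libraries of different groups in a depot deviated together with correlations of 0.36, 0.23 and 0.32 in eWAT and -0.02, 0.003 and 0.61 in iWAT. The depot fits instead pair the eWAT and iWAT libraries of a number within each group, which these correlations do not address. The labels do not say that a number marks a shared batch, and with 2 numbers per group these values do not settle whether it pairs the samples.

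With 2 libraries per group, counts rest on single libraries, and Lif on 4 to 420 UMIs per library.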
